A study of Mus musculus with 15 samples.

Results

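The 10 genes described here, Mfap3l, Gm13522, Map6d1, Tnr, Mamdc2, Hfe, AU021092, Vstm4, Chl1 and Tnik, were selected on their normalized counts from the 27907 genes of an ovarian RNA sequencing table, for being higher throughout in HSD17B1-KI than in WT mice. That difference chose them, so it is given below as a description without a test, and the tests concern what the choice did not use: their variation among mice of the same genotype, the genes beside them and related genes. Lists of related and marker genes were written with earlier results of these data known. HSD17B1-KI mice were homozygous for the HSD17B1 Ser143Ala knock-in, which replaces a serine of the enzyme with alanine. The allele was made with CRISPR/Cas9, mice came from breeding of heterozygotes, and WT mice were the comparison group. Ovaries of 7 HSD17B1-KI and 8 WT females aged 6 months were collected in estrus, and 1 stranded mRNA library was sequenced per mouse. The libraries held 39092867 to 69972608 recovered reads in HSD17B1-KI and 26544745 to 72362981 in WT. Levels are normalized counts, that is, reads of a gene divided by a size factor of the library.

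HSD17B1 is an enzyme of granulosa cells that converts estrone to the more potent estradiol. Its substrate derives from androgens made by theca and interstitial cells with CYP17A1, while luteal cells mainly make progesterone, and fibroblast-like stroma surrounds these compartments. A whole ovary mixes all of them, and in such a sample fewer cells of a type and less RNA per cell cannot be told apart. All 8 marker lists used below, for theca and interstitial cells, luteal cells, stroma, granulosa cells, nerve and Schwann cells, oviduct, macrophages and blood vessels, had every marker above 0 in at least some mice. Oviduct markers differed most between libraries, with a summed level of 432 to 24465 normalized counts in HSD17B1-KI and 455 to 228468 in WT, highest in WT 1, and all 7 had a lower mean log2 level in HSD17B1-KI. The 10 genes were related to a score of these markers within genotype, and their fold changes were refitted with that score as a covariate, as given below. The share of their reads that came from adhering oviduct was not tested.

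The upstream sequences shown first belong to genes whose transcripts are followed below: Gm13522, Map6d1, and the pair Vstm4 and Hsd3b6, whose levels ran close together from mouse to mouse. They are from RefSeq on GRCm38.p6, read 5′ to 3′ on the strand of the gene and end at the base before its RefSeq start. For Gm13522 that start, 52378594, differs from the GENCODE start, 52367063, which lies 11.5 kb upstream and within the Neb gene of the opposite strand. The stretch printed runs from the first base beyond Neb to the RefSeq start, and 44 of its bases belong to a Gm13522 exon in GENCODE. RefSeq promoters were matched for 7 of the 10 genes and not for Mamdc2, AU021092 and Tnik. Capitals mark a match on either strand to any of 4 motifs. For NR5A1, or steroidogenic factor 1, the letters searched were AAGGTCA. The half-site of steroid receptors was searched as AGAACA. For the half-site of the cyclic AMP response element, TGACG was used. The GATA site was searched as AGATAA.
Gm13522, chr2:52378475-52378593, plus strand: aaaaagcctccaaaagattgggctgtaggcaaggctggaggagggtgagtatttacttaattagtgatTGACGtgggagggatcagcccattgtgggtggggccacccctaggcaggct
Map6d1, chr16:20241359-20241608, minus strand: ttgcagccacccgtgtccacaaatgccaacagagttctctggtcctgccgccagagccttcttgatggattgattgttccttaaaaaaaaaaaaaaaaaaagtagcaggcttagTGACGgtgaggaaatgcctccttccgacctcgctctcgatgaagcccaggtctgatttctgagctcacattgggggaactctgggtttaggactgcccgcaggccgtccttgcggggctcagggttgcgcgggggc
Vstm4, chr14:32856506-32856755, plus strand: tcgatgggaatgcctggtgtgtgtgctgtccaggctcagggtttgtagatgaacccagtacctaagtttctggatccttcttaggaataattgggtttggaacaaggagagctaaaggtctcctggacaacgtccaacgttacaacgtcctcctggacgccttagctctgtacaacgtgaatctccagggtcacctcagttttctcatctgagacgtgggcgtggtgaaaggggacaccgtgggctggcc
Hsd3b6, chr3:98814444-98814693, minus strand: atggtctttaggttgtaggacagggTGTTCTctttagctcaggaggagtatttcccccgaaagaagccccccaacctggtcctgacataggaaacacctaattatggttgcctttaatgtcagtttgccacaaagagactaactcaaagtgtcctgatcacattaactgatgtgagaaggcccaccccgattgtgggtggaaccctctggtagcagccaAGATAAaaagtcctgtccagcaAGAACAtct

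The 119 bases printed for Gm13522 held TGACG at positions -51 to -47 from its RefSeq start, and 11.6% of RefSeq promoters held it on either strand in a window of this length. Farther upstream, within Neb, the opposite strand held it at -146 to -142. The Map6d1 sequence held it at -136 to -132. The Vstm4 sequence held none of the 4 motifs, while that of Hsd3b6 held the steroid receptor half-site at -225 to -220 and at -9 to -4 and the GATA site at -31 to -26. Hfe held the steroid receptor half-site at -214 to -209 on the opposite strand, and 1 of the 3 RefSeq promoters of Mfap3l held the GATA site at -88 to -83. No match was found in the windows of Tnr and Chl1, and all 250 bases of the Chl1 window belong to a Chl1 exon in GENCODE. In windows of 250 bases of 32851 RefSeq promoters, the cyclic AMP half-site was present in 17.8%, the steroid receptor half-site in 16.1%, the GATA site in 9.99% and the NR5A1 site in 4.08%, on either strand. These matches describe letters and not bound sites.

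Of the 10 genes, 9 had every HSD17B1-KI mouse above every WT mouse, a pattern that chose them and that 0.274% of the 21525 genes tested showed. Genes were tested when their mean over the 15 mice reached 2 normalized counts. AU021092 was the exception. The log2 fold changes, on the scale of log2(normalized count + 1), ranged from 0.50 for Hfe to 2.59 for Gm13522 with a median of 1.09, beside a median of -0.02 over all genes tested. The coefficient of variation among mice was larger in HSD17B1-KI than in WT for 7 of the 10. The 10 genes lie on 9 chromosomes, with Map6d1 and AU021092 both on chromosome 16, and none lies on chromosome 11, which carries Hsd17b1.

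**Figure D1:**
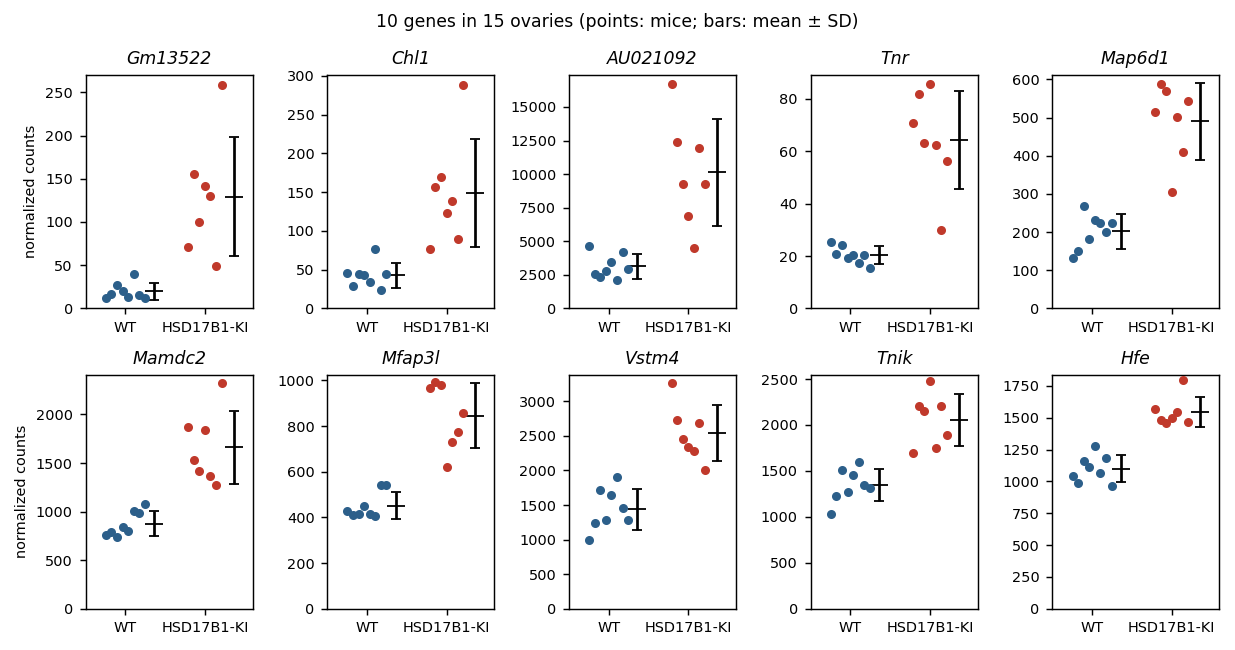
Normalized counts (vertical axes, from 0) of the 10 genes in each WT (blue, n = 8) and HSD17B1-KI (red, n = 7) ovary, 1 point per mouse, with the mean and SD as black bars. Points of the genotypes overlap for AU021092, where HSD17B1-KI 5 at 4480 lies below WT 1 at 4679, and not for the other 9 genes.

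Tnr and Chl1 encode proteins best known from the nervous system. Tnr encodes tenascin-R, a glycoprotein of the brain's extracellular matrix (chr1:159523769-159931729, plus strand of mm10), and was the lowest of the set per kilobase of exon, at 4.99 normalized counts per kb in HSD17B1-KI and 1.59 in WT. It ran from 29.8 through a median of 63.1 to 85.7 normalized counts in HSD17B1-KI and from 15.3 through 20.5 to 25.5 in WT. The lowest HSD17B1-KI mouse, number 6, was the only one of its genotype near the WT range, and the genotypes did not overlap (64.3 ± 18.6, SD, n = 7, against 20.4 ± 3.30, n = 8). The log2 fold change was 1.56 with a standard error of 0.21.

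Chl1, close homolog of L1, is a cell adhesion molecule of the L1 family (chr6:103510586-103750211, plus strand). Its lowest, median and highest values were 76.7, 139 and 288 normalized counts in HSD17B1-KI and 24.1, 43.7 and 76.2 in WT. HSD17B1-KI 1 and WT 6 thus almost met, and HSD17B1-KI 7 stood above the others (149 ± 70.2, n = 7, against 42.6 ± 15.8, n = 8). The log2 fold change was 1.74 with a standard error of 0.28.

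Mamdc2, Vstm4 and Mfap3l encode matrix or membrane proteins. Mamdc2, a secreted protein with MAM domains (chr19:23302609-23448442, minus strand), ran from 1276 through 1528 to 2328 normalized counts in HSD17B1-KI and from 743 through 820 to 1076 in WT. HSD17B1-KI 7 was highest, as it was for Gm13522 and Chl1, and the means were 1661 ± 372 (n = 7) and 875 ± 128 (n = 8), a log2 fold change of 0.91 with a standard error of 0.13. Vstm4, an immunoglobulin-like transmembrane protein (chr14:32856756-32939491, plus strand), ran from 2002 through 2460 to 3268 in HSD17B1-KI and from 991 through 1371 to 1903 in WT. HSD17B1-KI 7, highest for Mamdc2, was lowest for Vstm4, and the gap to the highest WT mouse, WT 6, was small (means 2537 ± 406, n = 7, and 1439 ± 299, n = 8; log2 fold change 0.83, standard error 0.13). Mfap3l, a membrane protein with immunoglobulin-like domains (chr8:60632827-60676729, plus strand), ran from 621 through 856 to 995 normalized counts in HSD17B1-KI and from 409 through 423 to 544 in WT. WT 7 and WT 8 were the highest WT mice and still lay below HSD17B1-KI 4, the lowest of its genotype (846 ± 144, n = 7, against 452 ± 58.1, n = 8; log2 fold change 0.89, standard error 0.11).

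Tnik, Hfe and Map6d1 act inside the cell or in its iron uptake. Tnik is a serine/threonine kinase that binds TRAF2, NCK and the Wnt effector TCF7L2 (chr3:28263214-28675858, plus strand), and it ran from 1696 through 2148 to 2474 normalized counts in HSD17B1-KI and from 1034 through 1332 to 1600 in WT. HSD17B1-KI 1 and 5 were low and WT 6 high, without overlap (2054 ± 283, n = 7, against 1346 ± 178, n = 8; log2 fold change 0.61, standard error 0.10). Hfe is a protein related to MHC class I that pairs with beta-2-microglobulin, binds the transferrin receptor and takes part in iron sensing (chr13:23702034-23710854, minus strand). It ran from 1460 through 1497 to 1795 in HSD17B1-KI and from 961 through 1089 to 1277 in WT, so that it had the smallest fold change of the set and also the smallest spread, with coefficients of variation of 7.59% and 9.67%. Its means were 1546 ± 117 (n = 7) and 1098 ± 106 (n = 8), a log2 fold change of 0.50 with a standard error of 0.07. Map6d1 is a microtubule-stabilising protein related to MAP6 (chr16:20233303-20241358, minus strand). It ran from 305 through 513 to 588 in HSD17B1-KI and from 132 through 212 to 267 in WT, with HSD17B1-KI 4 lowest and the genotypes apart (means 490, n = 7, and 202, n = 8, with coefficients of variation of 20.4% and 22.1%; log2 fold change 1.28, standard error 0.17).

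Gm13522 and AU021092 are known by database names. Gm13522 is annotated as an antisense RNA (chr2:52367063-52390307, plus strand) and had the largest fold change of the set. It ran from 48.8 through 131 to 258 normalized counts in HSD17B1-KI and from 11.9 through 16.2 to 39.98 in WT. HSD17B1-KI 6 was lowest and HSD17B1-KI 7 highest, and WT 6, the highest WT mouse, came near the lowest HSD17B1-KI mouse without overlap (129 ± 68.5, n = 7, against 19.7 ± 9.65, n = 8; log2 fold change 2.59, standard error 0.34). AU021092 (chr16:5211823-5222299, minus strand) had the highest level of the set per kilobase of exon, at 7416 normalized counts per kb in HSD17B1-KI and 2289 in WT. It ran from 4480 through 9298 to 16684 normalized counts in HSD17B1-KI and from 2084 through 2872 to 4679 in WT, and 6 of 7 HSD17B1-KI mice lay above all WT mice (10146 ± 3985, n = 7, against 3131 ± 904, n = 8). Its log2 fold change was 1.64 with a standard error of 0.24.

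No single mouse was high or low for the whole set. HSD17B1-KI 7 was the highest of its genotype for 3 genes and HSD17B1-KI 6 the lowest for 3. Among WT mice, WT 6 was the highest for 4 genes and WT 1, the library richest in oviduct markers, the lowest for 4 and the highest for 2. The coefficient of variation in HSD17B1-KI ran from 7.59% for Hfe to 53.1% for Gm13522.

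To see which cells the genes followed, each gene's log2 level was related to a score per list, the mean z-score of its markers, after the mean of each genotype was subtracted. This leaves only the differences among mice of 1 genotype. Of 30 relations to the theca and interstitial, luteal and stromal scores, 2 passed an adjusted p of 0.05 in a two-sided permutation test with Benjamini-Hochberg adjustment, and 5 had an unadjusted p below it. Mfap3l rose and fell with the theca and interstitial score, and AU021092 was low where the stromal score was high.

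**Figure D2:**
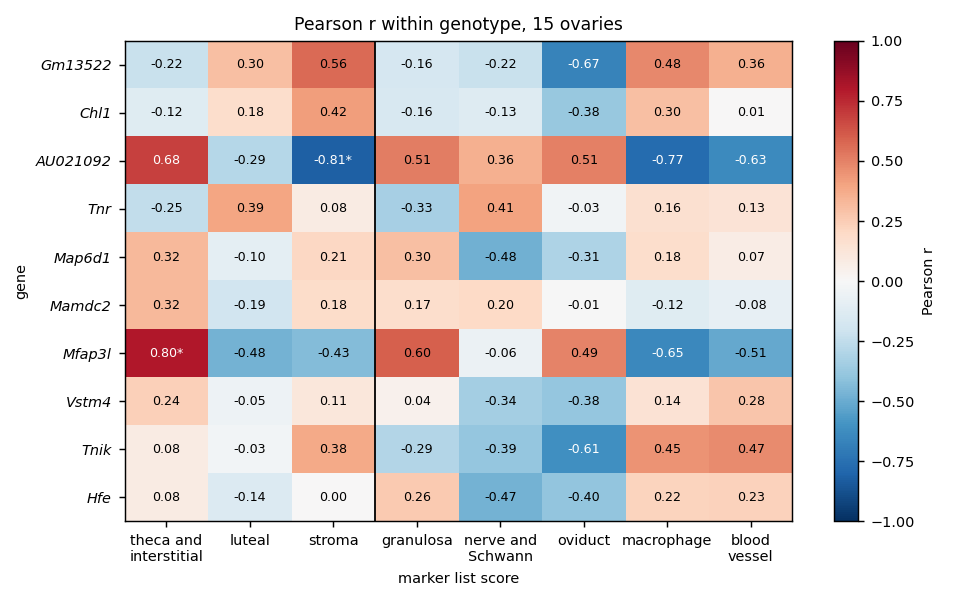
Pearson r within genotype over 15 ovaries between each of the 10 genes (vertical axis) and each of 8 marker scores (horizontal axis), with red for positive, blue for negative and an asterisk at an adjusted p under 0.05. Mfap3l with the theca and interstitial score (0.80) and AU021092 with the stromal score (-0.81) carry the asterisks.

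For Mfap3l and the theca and interstitial score, Pearson's r was 0.80 (permutation test, adjusted p = 0.0162, n = 15) and Spearman's rho 0.87 (permutation test, adjusted p = 0.0069). The relation had the same sign in each genotype, with r = 0.81 in 7 HSD17B1-KI mice (exact permutation p = 0.0250) and 0.79 in 8 WT mice (exact permutation p = 0.0142). Without HSD17B1-KI 4 and 5, the mice farthest from the median score, r was 0.75. The nearest single marker was Cyp17a1, the enzyme that commits steroids to the androgen branch, with r = 0.80. Of the other markers of the list, Gli1, Hhip, Nr5a1 and Ptch1 were at 0.63 to 0.76. Insl3, Aldh1a1 and Nr0b2 were at 0.12 to 0.37, and Hsd3b6 and Esr1 at -0.05 and -0.06. Cyp17a1 itself split the ovaries, since HSD17B1-KI 4 and 5 and WT 3 and 6 held 107 to 254 normalized counts and the other 11 held 2033 to 56551. In those 11 ovaries r of Mfap3l with the score was 0.77 (permutation test, adjusted p = 0.220), so that the size of the relation held and the call did not. On leaving out 1 mouse, r ran from 0.77 to 0.84 and the call was lost without HSD17B1-KI 1, HSD17B1-KI 2 or WT 7, with a permutation-test adjusted p of up to 0.0553. Other scores moved in the same mice, since Mfap3l had r = 0.60 with the granulosa score (adjusted p = 0.262) and -0.65 with the macrophage score (adjusted p = 0.190, permutation tests).

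For AU021092 and the stromal score, r was -0.81 (permutation test, adjusted p = 0.0162, n = 15) and rho -0.75 (permutation test, adjusted p = 0.0523). Pearson's r was -0.97 in 7 HSD17B1-KI mice (exact permutation p = 0.0008) and -0.49 in 8 WT mice (exact permutation p = 0.216), and a difference between genotypes was not tested. Without HSD17B1-KI 1 and 5 r was -0.64, without HSD17B1-KI 5 alone it was -0.70 (permutation test, adjusted p = 0.0864), the call was also lost without HSD17B1-KI 1 alone (-0.77) or HSD17B1-KI 2 alone (-0.81), and in the 11 ovaries with high Cyp17a1 it was -0.48 (permutation test, adjusted p = 0.470). Macrophage and vessel scores moved in the same mice, with r = -0.77 (adjusted p = 0.0840) and -0.63 (adjusted p = 0.190, permutation tests), and they and the stromal score were each highest in HSD17B1-KI 5. Single stromal markers differed in their r with AU021092. Pdgfra, Col1a1, Col1a2 and Col3a1 were at -0.84 to -0.86 and Lum at -0.75. Mfap4, Nr2f2 and Dcn were at -0.57, -0.44 and -0.30, while Tcf21 and Ogn were at 0.22 and 0.46. Dcn was at -0.96 in HSD17B1-KI and 0.71 in WT. The relation of AU021092 to the theca and interstitial score was 0.68 over all mice (permutation test, adjusted p = 0.108) and 0.03 in the 11 ovaries, and its nearest single marker was Cyp17a1 at 0.74. Without WT 1 the relation to the theca and interstitial score was 0.84 (permutation test, adjusted p = 0.0189), and without WT 5 that to the macrophage score was -0.91 (permutation test, adjusted p = 0.0065).

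**Figure D3:**
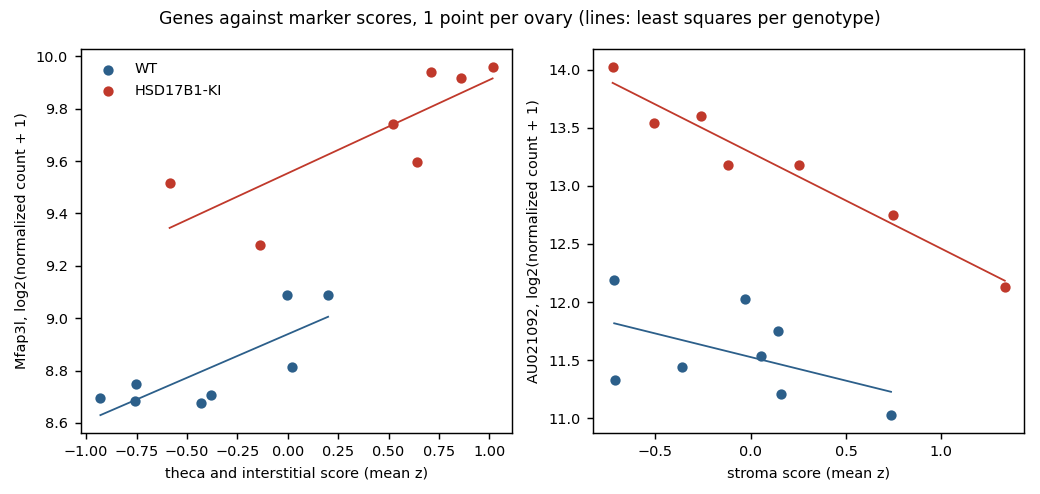
Log2(normalized count + 1) of Mfap3l against the theca and interstitial score (left) and of AU021092 against the stromal score (right), 1 point per ovary in WT (blue) and HSD17B1-KI (red), with a least squares line per genotype. Mfap3l climbs with its score in both genotypes (r = 0.81 and 0.79), while AU021092 falls with the stromal score with r = -0.97 in HSD17B1-KI and -0.49 in WT.

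The other 8 genes had no relation to these scores that passed over all 15 mice. Their lowest unadjusted p-values within a genotype were with the stromal score in WT. There r was 0.90 for Vstm4, 0.91 for Tnik and 0.84 for Map6d1 (exact permutation p = 0.0032, 0.0030 and 0.0093). In HSD17B1-KI the same relations had r = -0.71, -0.02 and -0.28, and the differences between genotypes were not tested. Gm13522 had r = 0.56 with the stromal score (permutation test, adjusted p = 0.266) and its nearest stromal marker was the collagen gene Col1a2 at 0.67. Mfap3l had r = -0.48 with the luteal score (permutation test, adjusted p = 0.266), and -0.56 without HSD17B1-KI 6 (permutation test, adjusted p = 0.0453). For the remaining genes the nearest marker of the theca, luteal and stromal lists was Nr2f2, a stromal transcription factor, for Tnik (0.70), Mfap4 for Chl1 (0.59), the side-chain cleavage enzyme Cyp11a1 for Tnr (0.58), the stromal transcription factor Tcf21 for Map6d1 (0.55) and Hfe (0.53), and the stromal proteoglycan gene Ogn for Mamdc2 (0.43). These markers are the highest of 30 each and are given as a description. The whole stromal score had r = 0.38 with Tnik, 0.42 with Chl1, 0.21 with Map6d1, 0.00 with Hfe and 0.18 with Mamdc2. Of 50 relations to granulosa, nerve and Schwann, oviduct, macrophage and vessel scores, 0 passed and 7 had an unadjusted permutation p under 0.05. Chl1 and Tnr, the genes best known from neurons, had r = -0.13 and 0.41 with the nerve and Schwann score, and Gm13522 and Tnik had r = -0.67 (adjusted p = 0.139) and -0.61 (adjusted p = 0.190, permutation tests) with the oviduct score. The relation of Gm13522 to the oviduct score passed without HSD17B1-KI 6 (-0.79) or WT 5 (-0.77), with a permutation-test adjusted p down to 0.0272.

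Vstm4 had the closest single marker of the set, Hsd3b6, a 3 beta-hydroxysteroid dehydrogenase of the theca and interstitial list. Its within-genotype r with Vstm4 was 0.89, at 0.86 in HSD17B1-KI and 0.90 in WT, below only that of Pja1, a ubiquitin ligase, at 0.90, among the 18046 genes that reached an average of 10 normalized counts. The whole theca and interstitial score had r = 0.24 with Vstm4 (permutation test, adjusted p = 0.800). The other markers of that list ran from -0.29 for Esr1 to 0.71 for Nr0b2, with Cyp17a1 at -0.14. Hsd3b6 was low, with 121 to 413 normalized counts in HSD17B1-KI and 25.5 to 101.2 in WT, and since Hsd3b genes are close copies its reads may be split with Hsd3b1. Hsd3b6 itself rose in HSD17B1-KI by 1.97 on the log2 scale (limma-trend, adjusted p = 0.0239). Of the upstream sequences printed above, that of Vstm4 held none of the 4 motifs, so it could not be compared by motif with that of Hsd3b6. Shared control of the pair was not tested.

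**Figure D4:**
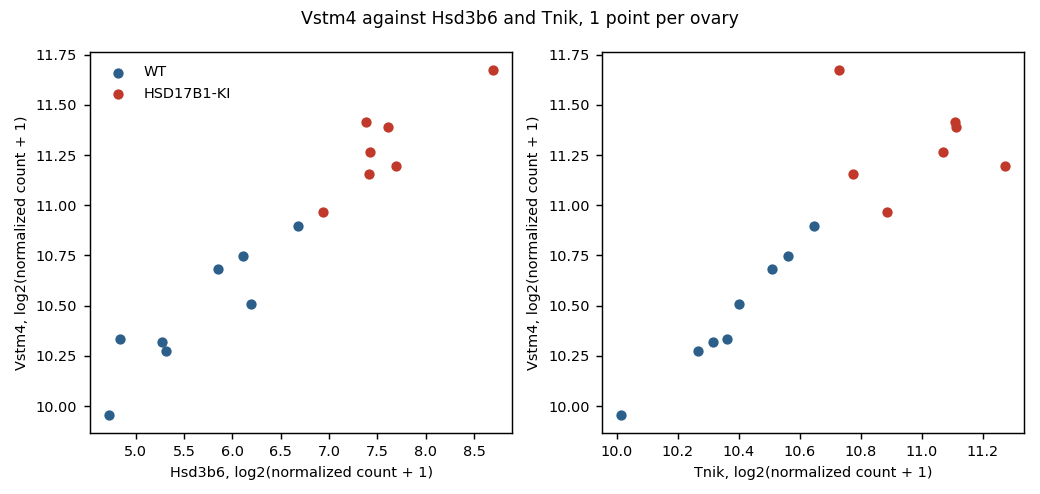
Log2(normalized count + 1) of Vstm4 against Hsd3b6 (left) and Tnik (right), 1 point per ovary in WT (blue) and HSD17B1-KI (red). Vstm4 follows Hsd3b6 in both genotypes (r = 0.86 and 0.90) while its r with Tnik was 0.99 in WT and -0.15 in HSD17B1-KI.

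Among all genes, the nearest to each of the others were Hyou1, an endoplasmic reticulum chaperone, for Mfap3l (0.94), 1700086P04Rik for AU021092 (0.91), Atp10a, a phospholipid flippase, for Gm13522 (0.89), Adcy4, an adenylyl cyclase, for Tnr (0.89), Nkx2-9 for Tnik (0.87), Nfatc4, a transcription factor, for Chl1 (0.86), Gltscr2 for Hfe (0.84) and Spata5 for Map6d1 (0.78). The nearest to Mamdc2 was RP23-211O3.4 (0.82), followed by Pmepa1 (0.81). Each is the highest of 18046 correlations over 15 mice that share a table and its scaling. Gpha2, a glycoprotein hormone subunit, was also among the 3 nearest to AU021092 (0.90) and Atp12a, a proton pump subunit, among the 3 nearest to Chl1 (0.79).

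The 10 genes were also compared with each other within genotype. Of their 45 pairs, 0 passed the adjusted threshold and 4 had an unadjusted permutation p under 0.05, with r from -0.54 to 0.75 and a median of 0.06. The closest pair was Gm13522 with Chl1 at r = 0.75 (permutation test, adjusted p = 0.126). Vstm4 and Tnik had r = 0.54 (permutation test, adjusted p = 0.436), which turned on single mice: it was 0.85 without HSD17B1-KI 1 (permutation test, adjusted p = 0.0198) and 0.33 without WT 1. They lay almost on a line in 8 WT mice (r = 0.99) and had r = -0.15 in 7 HSD17B1-KI mice, and the difference between genotypes was not tested.

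The genes beside the 10 took no part in the choice and were tested next. Of 25 neighbours or overlapping genes, 17 were tested, 0 passed an adjusted p of 0.05 in limma-trend, 5 had an unadjusted p under 0.05, and DESeq2 called 1, Mir6364, which was higher, as were 1.59% of the genes it tested. The 5, Mir6364, Neb, Parl, Nagpa and Alg1, were all higher in HSD17B1-KI, and limma-trend had 5.36% of all genes higher at that unadjusted threshold. Mir6364 lies inside an intron of AU021092 on the same strand, and its 25.5 ± 15.5 against 7.36 ± 3.67 normalized counts gave a log2 fold change of 1.70 (limma-trend, adjusted p = 0.0903), beside 1.64 for AU021092. Reads on this hairpin and reads of unspliced AU021092 cannot be told apart. Neb, which codes for the thin filament protein nebulin and shares 45 exonic bases with Gm13522 on the opposite strand, had a log2 fold change of 0.72 (limma-trend, adjusted p = 0.374). The library kit marks strand, but the counting setting is not given in the sources used here. Of the neighbours of Chl1, Cntn3 was at -1.01 (limma-trend, adjusted p = 0.522) and Cntn6 at 0.20 (adjusted p = 0.868).

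**Figure D5:**
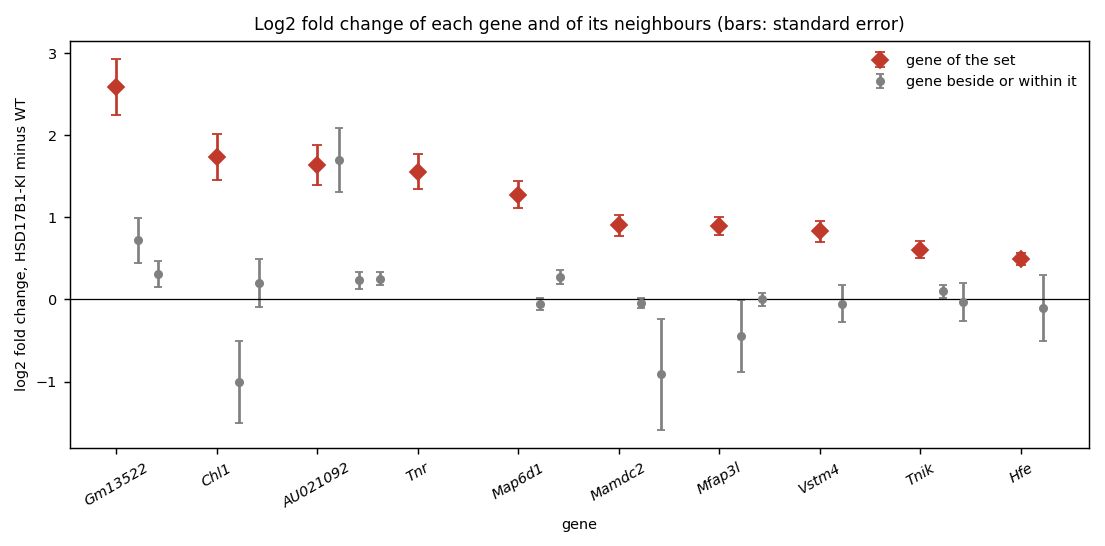
Log2 fold change of HSD17B1-KI over WT (vertical axis) with standard error for each of the 10 genes (red diamonds) and the tested genes beside or within it (grey circles). Mir6364, within AU021092, is the neighbour with the highest value (1.70) and none of the 17 passed the adjusted threshold of limma-trend.

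Related genes were followed in 6 lists by function, written with earlier results of these data known, with 91 of 92 genes tested. Limma-trend called 1 of them, against 0.214% of all genes tested, and DESeq2 called 5, against 2.3%. The gene that limma-trend called was Mapt, the gene of the microtubule protein tau, which is of the same protein class as Map6d1 and rose from 460 ± 106 (n = 8) to 993 ± 343 (n = 7) normalized counts, a log2 fold change of 1.07 (limma-trend, adjusted p = 0.0468). With single mice omitted, the call held in 3 of 15 fits (HSD17B1-KI 5, 6 or 7 omitted), and the limma-trend adjusted p reached 0.131 without HSD17B1-KI 2. Map6, the closest relative of Map6d1, was at -0.35 (limma-trend, adjusted p = 0.662). Of the relatives of Chl1, L1cam was at -0.57 (limma-trend, adjusted p = 0.459) and Nrcam at 0.86 (0.694). Their list of 16 genes had a median log2 fold change of -0.34. This list also held contactin, NCAM, ankyrin, neuropilin and semaphorin genes. Of the matrix partners of Tnr, Bcan, coding for brevican, was at 0.94 (limma-trend, adjusted p = 0.408) and Has1 at -1.28 (0.292), while Tnc was at 0.00. Hapln3, a link protein of the hyaluronan matrix, was at 0.61 and passed in DESeq2 (adjusted p = 0.0391) but not in limma-trend (adjusted p = 0.218).

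Of the iron genes beside Hfe, Slc40a1, the iron exporter ferroportin, was at 0.51 (limma-trend, adjusted p = 0.173; DESeq2, adjusted p = 0.0340) and Fth1, ferritin heavy chain, at 0.30 (limma-trend, adjusted p = 0.220; DESeq2, adjusted p = 0.0416). The partners of Hfe did not pass: Tfrc, the transferrin receptor, was at -0.37 and B2m at 0.04 (limma-trend, adjusted p = 0.577 and 0.966), and the list's ends were Tmprss6 at 0.80 (0.452) and Hamp, hepcidin, at -0.44 (0.885). Of the kinases and Wnt genes beside Tnik, Nrk had the highest log2 fold change at 0.23 and Notum the lowest, with 76.9 ± 31.7 (n = 7) against 236 ± 312 (n = 8) normalized counts (limma-trend, adjusted p = 0.839 and 0.539), and Tcf7l2 was at 0.04. Vstm2a, related to Vstm4, was the lowest of all 6 lists at -1.81, with 4.34 ± 1.83 (n = 7) against 19.2 ± 9.73 (n = 8) normalized counts (limma-trend, adjusted p = 0.0524; DESeq2, adjusted p = 0.0003), and Vstm2b was at 0.24 (limma-trend, adjusted p = 0.740). Mfap3, the relative of Mfap3l, was at 0.01.

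The marker lists were written with earlier results of these data known. The study of these mice had reported Hsd3b6, Aldh1a1, Insl3 and Nr5a1 as higher in HSD17B1-KI. It had also reported Cyp17a1 as higher by quantitative PCR, in ovaries in estrus at the age sequenced here. Calls and medians of these lists are therefore a description. Of the 71 marker genes, limma-trend called 2, against 0.209% of all genes called higher, both higher and both of the theca and interstitial list: Hsd3b6, given above, and Aldh1a1, a retinaldehyde dehydrogenase, at a log2 fold change of 1.02 (limma-trend, adjusted p = 0.0276). On leaving out 1 mouse, Hsd3b6 passed in 11 of 15 fits, all but those without HSD17B1-KI 2 or 4 or WT 2 or 4, with a limma-trend adjusted p of up to 0.0646 without WT 2. Aldh1a1 passed in 4 of 15, those without HSD17B1-KI 5 or 7 or WT 5 or 7, with up to 0.0800 without HSD17B1-KI 2. The summed level of that list was 159090 to 346118 normalized counts in HSD17B1-KI and 101742 to 180842 in WT. Aldh1a1 alone made up 65.7% to 89.6% of this sum in HSD17B1-KI and 69.5% to 83.6% in WT, and without it the sum was 25208 to 103154 and 22366 to 54573. Ptch1 and Gli1, targets of hedgehog signals in theca cells, were at 0.06 and 0.04 (limma-trend, adjusted p = 0.939 and 0.964). Cyp17a1, which neither limma-trend nor DESeq2 called, was at 1.88, and Esr1, the lowest of that list, was at -0.34. The part of theca and interstitial cells in the difference of the 10 genes was not tested. DESeq2 also called Insl3 (1.17 in limma-trend), Nr0b2 (0.76) and Nr5a1 (0.66). Each list's median was 0.71 for theca and interstitial, 0.32 for luteal, 0.05 for stroma, 0.27 for granulosa, -0.06 for nerve and Schwann, -0.87 for oviduct, 0.20 for macrophage and 0.04 for vessel markers, beside the 1.09 of the 10 genes.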

How the data were processed

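Reads were demultiplexed by the authors with bcl2fastq 2.20, trimmed and mapped to mm10 with STAR 2.7.3, and the deposited signal is reads per gene over size factors; the counting program and annotation are not given in the sources used here. Dividing each library by its smallest step gave whole reads for 100% of values (tolerance 0.01), which were used for edgeR 4.0.16 and DESeq2 1.42.0. No column was left out. The 10 genes and all lists were chosen with earlier results of these data known. Genotypes were compared with limma-trend (limma 3.58.1, R 4.3.3) on log2(normalized count + 1) where the average reached 2, with no term but genotype, two-sided, and Benjamini-Hochberg adjustment at 0.05; edgeR called 50 genes and limma-trend 46. P-values cover the spread between mice, 1 library each. Relations used 100000 permutations of mice within genotype. Positions are from GENCODE M21, and 27533 of 27907 genes were matched to it. Named were the 10 genes, for each the marker with the highest r in each of the theca, luteal and stromal lists (the highest of these is printed) and the 3 genes with the highest r overall (of which 1 or more are printed), the genes beside them, called list genes and the ends of each list of related genes. The ends of the marker lists were not all printed. The genes Map6, L1cam, Tnc, Tfrc, B2m, Slc40a1, Fth1, Tcf7l2, Mfap3, Hapln3, Ptch1, Gli1, Insl3, Nr0b2, Nr5a1 and Esr1, and the fold change of Cyp17a1, were added after their values were seen. So were the correlations of Mfap3l and AU021092 with single markers beyond the nearest. The fits were tested on simulated data. Alternatives were upper quartile scaling, other pseudocounts (0.1 and 10), other filters (none, or an average of 10), the oviduct score as a covariate or removed, a replicate block and the omission of single mice. With the data in view, 2 more were added: mice 1 to 7 of each genotype and the 11 ovaries high in Cyp17a1 (relations only).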

Additional observations from a re-analysis of the deposited data

Results flagged for a closer look

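Of 20 groups of values, each a gene in 1 genotype, 2 held a mouse far from the others by Dixon's criterion, which chance reaches in about 1 of 20 groups. Hfe was at 1795 normalized counts in HSD17B1-KI 6, above the 1460 to 1571 of the other 6. Chl1 was at 76.2 normalized counts in WT 6, beside a WT median of 43.7.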

How the results depend on the processing

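The median log2 fold change of the 10 genes, 1.09, kept its size and sign under every alternative and ran from 1.04 to 1.18 on leaving out each mouse. The genes were chosen on this difference in the same mice, so its stability is a description and not a check. Over all alternatives the log2 fold change of Gm13522 ran from 2.14 to 2.79 and that of Tnr from 1.25 to 1.73. Limma-trend called 46 genes, against 456 with DESeq2, 28 without the filter on low values, 12 in mice 1 to 7 of each genotype and 6 to 139 on leaving out each mouse. With the replicate block it called 0. Same-numbered mice had correlations of -0.55 to 0.55, and in 1 of 7 cases the best match was the own number. The labels do not say whether equal numbers pair mice, and these correlations cannot settle it. The call of 1 gene of the related lists became 5 with DESeq2, 2 with edgeR and with a mean of at least 10, 0 without the filter, with the oviduct covariate, with upper quartile scaling, with the block and in mice 1 to 7, and 0 to 1 on leaving out each mouse. The 2 marker genes became 5 with DESeq2, 1 in mice 1 to 7, 0 with the block and 0 to 2 on leaving out each mouse, and the 0 neighbours became 1 with DESeq2 and 0 to 0 on leaving out each mouse. The 2 relations to theca, luteal and stromal scores became 1 by Spearman's rho, 1 with the oviduct score removed, 0 in the 11 ovaries high in Cyp17a1 (chosen after the data were seen) and 0 to 3 on leaving out each mouse, with 0 without HSD17B1-KI 1 or HSD17B1-KI 2 and 1 without HSD17B1-KI 5 or WT 7. Relations to other cells ran from 0 to 2 and pairs from 0 to 1 (Vstm4 with Tnik, without HSD17B1-KI 1) on leaving out each mouse, and pairs became 3 with the oviduct score removed. The cause was not tested. Genes under 10 normalized counts are imprecise at this depth.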
